A study of Mus musculus with 7 samples.

Results

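Collagen chain genes are the rows of the count table whose symbol is Col, a number, the letter a and a number. The table held 44 of them among 24421 gene rows: 11 fibrillar, 6 basement membrane, 6 beaded filament and 21 other chains. Left atria were taken from adult mice of the outbred CD1 strain, 4 labelled FOG2 overexpression and 3 labelled WT (wild type), and the animals of both groups had been kept without doxycycline for 1 week. FOG2, encoded by Zfpm2, is a zinc finger cofactor of GATA transcription factors. The labels call the animals DTG and NTG without spelling either out, and no source used here gives the promoter or cell type that drives the extra FOG2. Whether every library had its own animal is not stated, so the p-values here reflect variation among libraries, part of which may be technical.

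Collagens are proteins whose chains wind around one another into a helix, and they form most of the solid matrix between heart cells. Fibrillar collagens build the load-bearing fibres laid down by fibroblasts, basement membrane collagens form sheets around vessels and muscle cells, and beaded filament collagens link fibres to cells. In the atrium, extra fibrillar collagen is known as fibrosis, which slows and breaks up conduction and is a recognised substrate of atrial fibrillation.

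Counts per library summed to 5562520 to 8655655 over gene rows, and expression is given as CPM, the counts scaled to a common library size with TMM factors, in which 1 count stood for about 0.116 to 0.180 CPM before scaling. Zfpm2 was higher in every overexpression library, at 218 ± 54.2 CPM (SD, n = 4) against 30.7 ± 1.16 CPM (SD, n = 3) (log2 fold change 2.82 ± 0.22 (SE), adjusted p = 2.05e-04, edgeR quasi-likelihood test), and the lowest of them was replicate 1 at 140.1 CPM. Overexpression replicate 1 stood apart: the summed level of 10 cell cycle genes was 429 CPM there and 20.1 to 42.9 CPM in the other 6 libraries. Counts of called collagens and class medians are therefore given with all libraries and without that one. Single genes are given in both fits where the text says so, and otherwise with all libraries. These are pieces of whole atrium, so more cells of a type and more RNA per cell cannot be told apart.

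Collagen transcripts stood higher in most of the overexpression libraries, but few single chains passed the test. Of the 35 chains that passed the filter on low counts, Col12a1 and Col22a1 rose, 0 fell and 33 did not pass at an adjusted p under 0.05, a share of 5.71% where 4.84% of all 13295 tested genes were called (1.55% higher and 3.29% lower). Without overexpression replicate 1, Col13a1 and Col28a1 rose too, which made 4 of 35 (11.4%) against 8.73% of all genes (3.74% higher and 4.99% lower). Both shares lie near those called in either direction over all genes and above those called higher, and they rest on 2 and 4 chains. With all libraries the log2 fold change was above 0 in 30 of the 35 chains, with a median of 0.48, and above 0 in 53.2% of all tested genes, with a median of 0.02. Without replicate 1 it was again above 0 in 30, and the median was 0.45 against 0.01 over all genes, of which 51.8% lay above 0. At an unadjusted p under 0.05 there were 16 chains, each of them higher (45.7%), where 19.2% of all genes passed that level (9.14% higher). Without replicate 1 there were 14, again each higher, against 21.6% of all genes (10.4% higher). Groups did not overlap in 8 chains, with every overexpression library above every wild type one (22.9% against 8.99% of all genes). The chains were measured in the same libraries, so these counts are not independent. Col22a1 reached the count minimum in 0 wild type and 4 overexpression libraries and Col28a1 in 2 and 4, so Col22a1 entered the test only through the group where it was high, and Col12a1 is the called chain with all libraries of which this is not so. Col17a1 reached it in 2 libraries of each group. Scaling to library totals raised the median of all genes from 0.02 to 0.15 and called 5 chains higher, Col6a2, Col13a1 and Col28a1 besides those 2, where 5.55% of all genes were called (3.34% higher and 2.21% lower). DESeq2 called 12 chains higher and 0 lower where it called 8.62% of all genes (3.47% higher and 5.14% lower), adding Col1a1, Col1a2, Col5a1, Col5a2, Col6a1, Col6a2, Col6a3, Col13a1, Col14a1 and Col28a1. Without wild type replicate 2 only Col12a1 passed (1.90% of all genes called, 0.556% higher), and without wild type replicate 3 Col4a6 (adjusted p = 0.0398) and Col6a2 (adjusted p = 0.0329) passed besides Col12a1 and Col22a1 (2.94% of all genes, 0.987% higher). Scaling to fibroblast markers called 3 chains higher, Col13a1 besides the 2, where 1.01% of all genes were called higher and 1.67% lower. Library totals without replicate 1 called 6, adding Col6a2, Col13a1, Col15a1 and Col28a1, where 10.4% of all genes were called (6.95% higher and 3.44% lower).

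**Figure D1:**
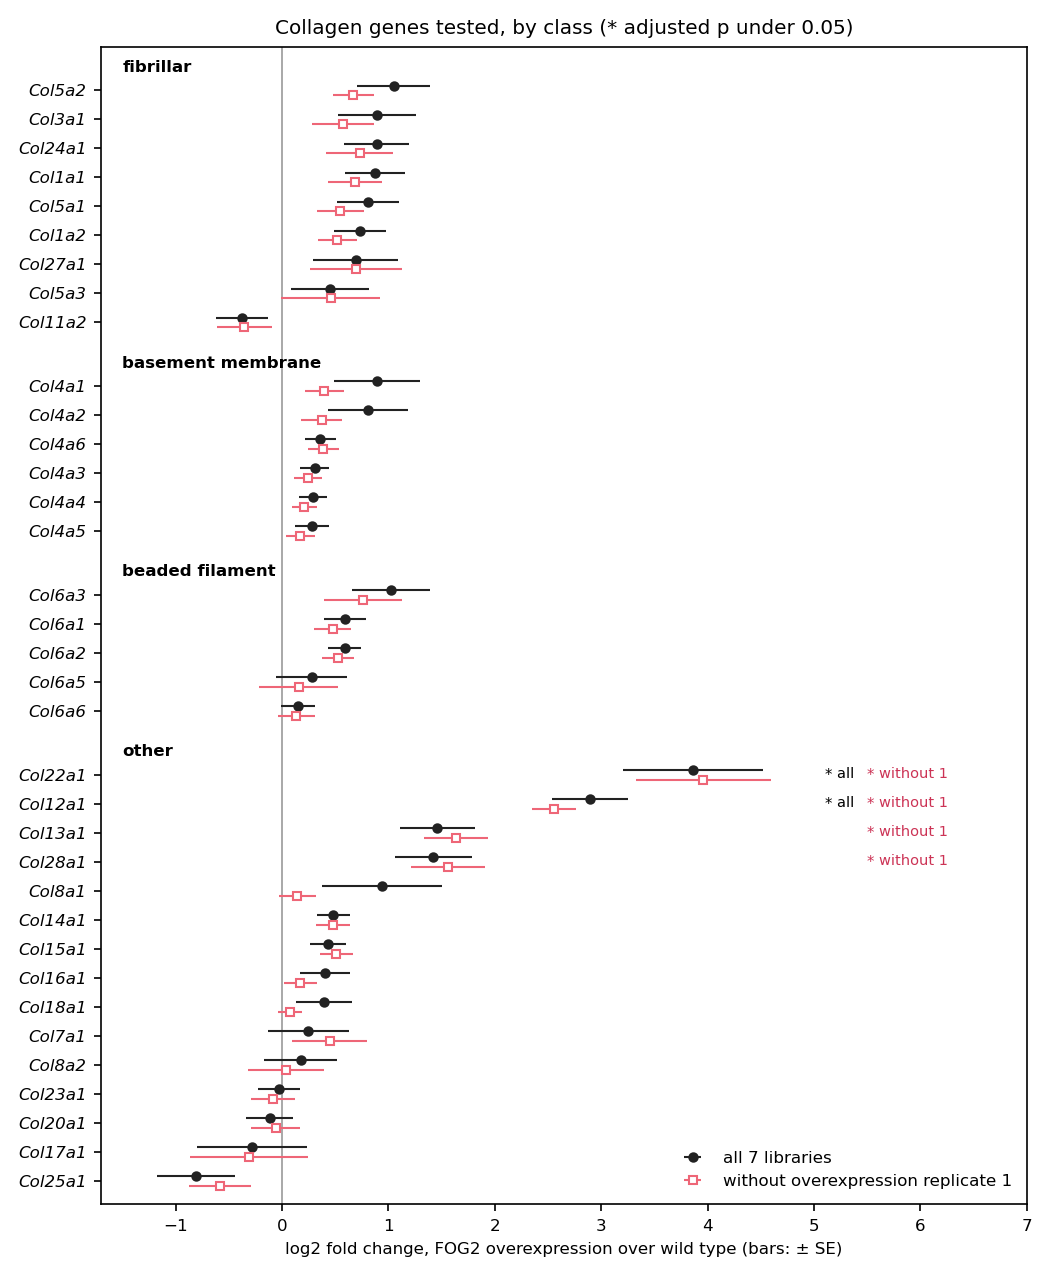
Log2 fold change of the 35 tested collagen genes, FOG2 overexpression over wild type, with its standard error, by class; filled circles use all 7 libraries and open squares leave out overexpression replicate 1. Col22a1 and Col12a1 lie furthest right in both fits, and Col4a1, Col4a2 and Col8a1 move towards 0 when that library is left out.

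Type XII collagen, which sits on the surface of fibrils and ties them to the matrix around them, had the clearest change of all chains. Its gene Col12a1 stood at 4.89, 2.68 and 4.43 CPM in wild type replicates 1 to 3 and 48.3, 21.7, 27.0 and 23.2 CPM in overexpression replicates 1 to 4. The lowest overexpression library lay above the highest wild type library by a wide margin, and replicate 1 was the highest. The log2 fold change was 2.90 ± 0.35 (SE), adjusted p = 0.00272, and without replicate 1 it was 2.56 ± 0.21 (SE), adjusted p = 3.89e-05. Over every alternative run its adjusted p stayed at or under 0.0196. The gene lies at chr9:79598991-79718831, minus strand, in the GENCODE M21 annotation of the mm10 build.

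Type XXII collagen is a fibril-associated chain known from tissue junctions such as the one between muscle and tendon. Col22a1 was near absent in wild type atria, with 0, 3 and 5 reads in replicates 1 to 3, and had 38, 20, 34 and 66 reads in overexpression replicates 1 to 4. That is 0, 0.424 and 0.616 CPM in wild type replicates 1 to 3 and 4.22, 2.89, 5.91 and 7.68 CPM in overexpression replicates 1 to 4. Every overexpression library was higher than every wild type one (log2 fold change 3.86 ± 0.66 (SE), adjusted p = 0.0116). The adjusted p was 0.00466 without overexpression replicate 1 and 0.0648 without wild type replicate 2. An antisense gene, Gm16308, overlaps an exon of Col22a1 at chr15:71795795-72034227, minus strand, and without a stated strand setting reads of the pair cannot be told apart.

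Type XIII collagen spans the cell membrane and is known at neuromuscular junctions. Its gene Col13a1 stood at 3.34, 2.68 and 4.93 CPM in wild type replicates 1 to 3 and 6.22, 7.37, 13.6 and 13.4 CPM in overexpression replicates 1 to 4, so the groups did not overlap and replicate 1 was the lowest of its group. With all libraries it did not pass the test (log2 fold change 1.46 ± 0.35 (SE), adjusted p = 0.0519), and without replicate 1 it rose (1.64 ± 0.30 (SE), adjusted p = 0.00779). Type XXVIII collagen is a chain found mainly around peripheral nerve and Schwann cells. Col28a1 held few reads, 8 to 16 in wild type and 23 to 35 in overexpression libraries, or 0.954, 1.41 and 1.97 CPM in wild type replicates 1 to 3 and 2.78, 3.32, 5.57 and 4.07 CPM in overexpression replicates 1 to 4. It likewise passed without replicate 1 (1.56 ± 0.35 (SE), adjusted p = 0.0195) and not with it (1.42 ± 0.36 (SE), adjusted p = 0.0604). Markers of Schwann cells were summed over 7 genes, none at 0 in every library. The sum was 32.8 to 43.3 in wild type, 59.0 to 79.6 in overexpression replicates 2 to 4 and 36.3 in replicate 1 (CPM). In replicate 1 the sum thus lay inside the wild type range, whereas Col28a1 lay above every wild type library. Of the 5 markers tested, Gfra3, Kcna1 and Cadm2 rose without replicate 1, and 0 passed with it. The part of Schwann cell RNA in the Col28a1 result was not tested.

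**Figure D2:**
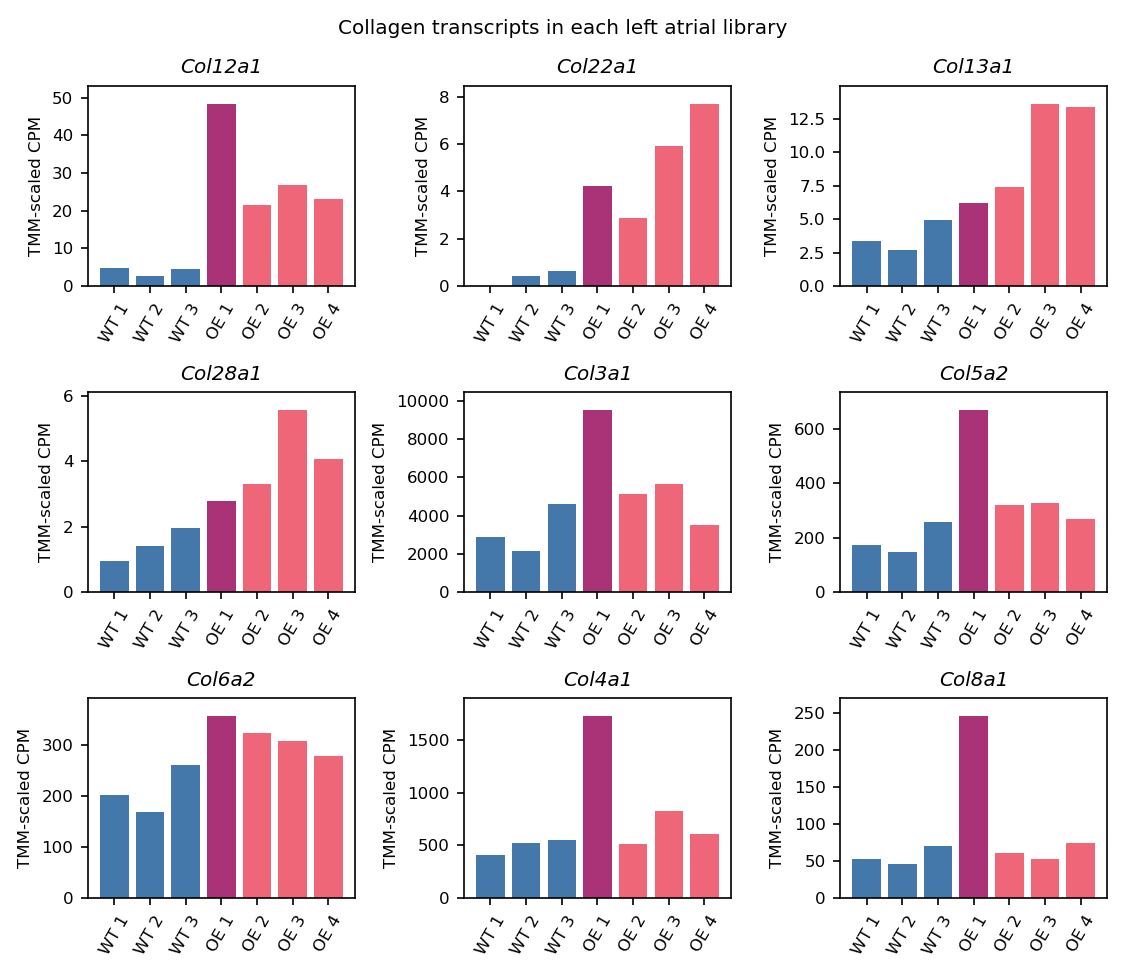
TMM-scaled CPM of 9 collagen genes in the 3 wild type and 4 overexpression libraries, 1 bar per library, with overexpression replicate 1 in the darker shade; each panel has its own axis from 0. Col12a1 and Col22a1 are higher in all 4 overexpression libraries, whereas the bars of Col4a1 and Col8a1 stand out in replicate 1.

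The bases before the starts of Col13a1 and Col28a1, the chains that joined the called ones without replicate 1, are shown from the RefSeq promoter table of GRCm38.p6. Capitals mark CCAAT, the site read by the factor NF-Y, and GGGCGG, the GC box read by Sp factors, on either strand, and a stretch all in lower case holds neither. They are 250 bases long and end at the base before the start, at chr10:61979109-61979358, minus strand, and chr6:8192618-8192867, minus strand.
Col13a1: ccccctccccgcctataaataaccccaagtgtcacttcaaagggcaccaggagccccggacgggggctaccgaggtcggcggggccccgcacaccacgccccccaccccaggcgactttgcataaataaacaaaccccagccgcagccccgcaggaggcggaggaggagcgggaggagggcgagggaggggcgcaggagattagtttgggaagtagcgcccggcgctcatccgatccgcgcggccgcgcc
Col28a1: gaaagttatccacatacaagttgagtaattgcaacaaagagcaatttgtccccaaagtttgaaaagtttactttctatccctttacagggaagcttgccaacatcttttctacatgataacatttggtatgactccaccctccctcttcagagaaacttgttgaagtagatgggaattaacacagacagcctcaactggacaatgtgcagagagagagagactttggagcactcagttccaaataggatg
The Col13a1 stretch is 68.8% G and C with 1 TATAAA and 1 GGTGTG (the core of a T-box site), and the Col28a1 stretch is 40.4% G and C with neither of these and 1 CAGACA, the letters of a Smad-binding element. AGATAA, a form of the site read by GATA factors, occurs in neither stretch. Other forms were not searched for, and the Col28a1 stretch holds TGATAA, which is such a form.

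Fibrillar chains rose in 0 of 9 tested cases and fell in 0. With all libraries 8 of the 9 had a log2 fold change above 0, as did 53.2% of all tested genes. Their median was 0.81 with all libraries and 0.57 without overexpression replicate 1. An unadjusted p under 0.05 was reached by 6 of the 9, each higher, against 19.2% of all genes (9.14% higher). Leaving out replicate 1 gave 5, each higher, against 21.6% of all genes (10.4% higher). The chains were measured in the same libraries, so these counts are not independent. Col3a1 encodes the chain of type III collagen, a fibre of soft and stretchy tissue, and was the most abundant collagen transcript. It stood at 2883, 2130.0 and 4589 CPM in wild type replicates 1 to 3 and 9520.4, 5133, 5636 and 3491 CPM in overexpression replicates 1 to 4. Replicate 1 was the highest, and overexpression replicate 4 lay below wild type replicate 3, so the groups overlapped. Col3a1 did not pass the test (log2 fold change 0.89 ± 0.37 (SE), adjusted p = 0.237, or 0.57 ± 0.29 (SE), adjusted p = 0.315 without replicate 1).

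Type I collagen, the main stiff fibre of scar, is assembled from the Col1a1 and Col1a2 chains. Col1a1 had 353, 285 and 554 CPM in wild type replicates 1 to 3 and 1001, 754, 665 and 501 CPM in overexpression replicates 1 to 4. Col1a2 had 782, 709 and 1083 CPM in wild type replicates 1 to 3 and 2016, 1327, 1372 and 987 CPM in overexpression replicates 1 to 4. For both genes wild type replicate 2 was the lowest library and overexpression replicate 1 the highest, and wild type replicate 3 lay above overexpression replicate 4. Log2 fold changes were 0.88 ± 0.28 (SE), adjusted p = 0.133, for Col1a1 and 0.73 ± 0.25 (SE), adjusted p = 0.144, for Col1a2. Without replicate 1 they were 0.69 ± 0.26 (SE), adjusted p = 0.173, and 0.52 ± 0.18 (SE), adjusted p = 0.127. The ratio of Col1a1 to Col1a2 per transcript length was 0.407, 0.362 and 0.462 in wild type replicates 1 to 3 and 0.448, 0.512, 0.437 and 0.458 in overexpression replicates 1 to 4, so both chains moved together over a range of levels. Taken over the union of annotated exons, which is long for Col1a2, the same ratio ran from 0.761 to 1.08.

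Type V collagen lies inside the type I fibre and sets its width. Its chain Col5a2 was the one abundant fibrillar gene whose groups did not overlap, at 173, 146 and 256 CPM in wild type replicates 1 to 3 and 669, 320.2, 326 and 269 CPM in overexpression replicates 1 to 4. Replicate 1 was far above the others, and the gene missed the threshold both with it (1.05 ± 0.35 (SE), adjusted p = 0.144) and without it (0.67 ± 0.20 (SE), adjusted p = 0.0792). Its partner Col5a1 had 185, 175 and 305 CPM in wild type replicates 1 to 3 and 580.0, 333, 366 and 276 CPM in overexpression replicates 1 to 4 (log2 fold change 0.81 ± 0.29 (SE), adjusted p = 0.180). Leaving out replicate 1 gave 0.55 ± 0.22 (SE), adjusted p = 0.190, for Col5a1. Col5a3, the third type V chain, did not pass (0.45 ± 0.36 (SE), adjusted p = 0.545), with wild type replicate 3 at 58.7 CPM and the other wild type libraries at 24.7 and 20.3. Among the scarce fibrillar chains, Col24a1 was higher in every overexpression library (3.12 ± 0.842 CPM (SD, n = 4) against 1.69 ± 0.215 CPM (SD, n = 3), adjusted p = 0.154), and Col27a1 and Col11a2 had log2 fold changes of 0.69 and -0.38. Col11a2, a chain of cartilage-type fibrils, was the only tested fibrillar gene below 0.

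The bases before the start of Col3a1 are shown as those of the most abundant chain. The 250 bases lie at chr1:45311288-45311537, plus strand, in GRCm38.p6, and hold 0 CCAAT and 0 GGGCGG, so that the run has no capitals.
Col3a1: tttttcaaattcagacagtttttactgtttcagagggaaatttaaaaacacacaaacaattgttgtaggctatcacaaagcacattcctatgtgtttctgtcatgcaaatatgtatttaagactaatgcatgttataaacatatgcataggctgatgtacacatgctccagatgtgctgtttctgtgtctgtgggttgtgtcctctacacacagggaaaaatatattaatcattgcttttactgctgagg
The stretch is 35.2% G and C and holds 1 TATAAA and 2 CAGACA.

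Summed over a class, collagen levels were higher in overexpression than in wild type for each of the 4 classes, with overexpression replicate 1 the highest library of each class. Fibrillar chains summed to 4416, 3477 and 6862 in wild type replicates 1 to 3 and 13853, 7921, 8451 and 5580.2 in overexpression replicates 1 to 4 (CPM). Basement membrane chains summed to 1022, 1240.0 and 1343 in wild type replicates 1 to 3 and 3155, 1278, 1817 and 1430.2 in overexpression replicates 1 to 4. Beaded filament chains summed to 718, 647 and 1023 in wild type replicates 1 to 3 and 1601, 1205, 1270.5 and 956 in overexpression replicates 1 to 4, and the other chains to 979, 803 and 1056 in wild type replicates 1 to 3 and 1453, 1348, 1382 and 1129 in overexpression replicates 1 to 4. In the summed other chains every overexpression library lay above every wild type one, whereas in the remaining classes 1 or more overexpression libraries lay below the highest wild type library. The ratio of group means was 1.82 for fibrillar, 1.60 for basement membrane, 1.58 for beaded filament and 1.40 for other chains. Without replicate 1 these ratios were 1.49, 1.25, 1.44 and 1.36. All collagens together took 0.569% to 0.973% of gene counts in wild type, 0.908% to 1.34% in overexpression replicates 2 to 4 and 2.09% in replicate 1. Col1a1, Col1a2 and Col3a1 made up 50.6% to 62.5% of collagen counts.

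**Figure D3:**
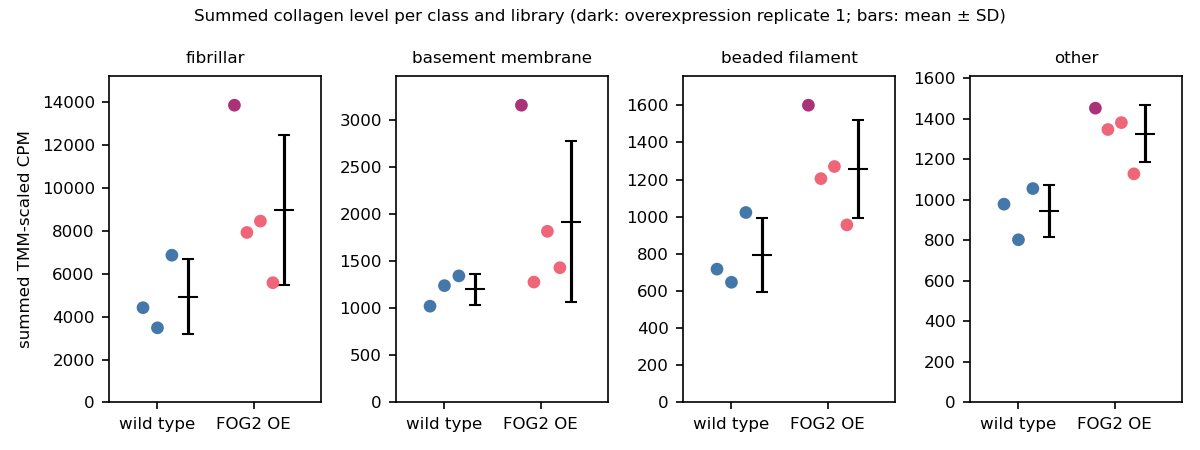
Summed TMM-scaled CPM of the collagen chains of each class, 1 point per library, with the mean and SD of each group beside the points; axes start at 0 and the darker point is overexpression replicate 1. That library is the highest point of each panel, and only in the panel of other chains do the 4 overexpression points all lie above the 3 wild type points.

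Basement membrane chains rose in 0 of 6 cases and fell in 0. With all libraries all 6 had a log2 fold change above 0, as did 53.2% of all tested genes. The median was 0.33 with all libraries and 0.31 without overexpression replicate 1. Col4a1 and Col4a2 encode the common form of type IV collagen, found under vessel walls and around muscle cells. Col4a1 stood at 409, 524 and 549 CPM in wild type replicates 1 to 3 and 1725, 509, 830.2 and 611 CPM in overexpression replicates 1 to 4. Col4a2 stood at 209, 273 and 275 CPM in wild type replicates 1 to 3 and 787, 239.7, 411 and 330.1 CPM in overexpression replicates 1 to 4. Replicate 1 was by far the highest library for both, while overexpression replicate 2 lay below 2 wild type libraries. Neither passed the test: Col4a1 had a log2 fold change of 0.90 ± 0.40 (SE), adjusted p = 0.280, and Col4a2 of 0.81 ± 0.37 (SE), adjusted p = 0.291. Without replicate 1 they were 0.40 ± 0.18 (SE), adjusted p = 0.251, and 0.37 ± 0.19 (SE), adjusted p = 0.323.

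Col4a3 and Col4a4 belong to the form of type IV collagen best known from the kidney filter, and Col4a5 and Col4a6 to a form found around smooth muscle. Col4a3 had 56.8, 74.1 and 66.3 CPM in wild type replicates 1 to 3 and 91.0, 82.2, 86.1 and 65.9 CPM in overexpression replicates 1 to 4, and Col4a4 had 86.2, 106 and 85.0 CPM in wild type replicates 1 to 3 and 131, 117, 109 and 94.8 CPM in overexpression replicates 1 to 4. Col4a5 had 208, 208 and 289.9 CPM in wild type replicates 1 to 3 and 347, 251, 293 and 252 CPM in overexpression replicates 1 to 4, and Col4a6 had 52.7, 54.5 and 77.7 CPM in wild type replicates 1 to 3 and 74.9, 78.9, 87.0 and 76.1 CPM in overexpression replicates 1 to 4. In these 4 genes the groups overlapped, and replicate 1 was the highest library for Col4a3, Col4a4 and Col4a5 and the lowest overexpression library for Col4a6. Their log2 fold changes lay between 0.28 and 0.36, with adjusted p from 0.216 to 0.391.

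These 6 genes lie in the genome as head-to-head pairs on opposite strands, with 21 bp between the starts of Col4a1 and Col4a2 on chromosome 8, 72 bp between those of Col4a4 and Col4a3 on chromosome 1 and 1309 bp between those of Col4a6 and Col4a5 on the X chromosome. Sequences at these starts are shown beside the ratios of each pair. For the pair of Col4a1 and Col4a2, whose annotated first exons overlap, 30 bases at chr8:11312757-11312786, plus strand, are given, which lie before the start of Col4a2 and inside Col4a1, for Col4a4 and Col4a3 the whole stretch between the starts at chr1:82586850-82586920, minus strand, and for the others the bases before each start at chrX:141475169-141475384, plus strand, and chrX:141474077-141474326, minus strand (GRCm38.p6, with CCAAT and GGGCGG on either strand in capitals).
Col4a2: CCGCCCgaggagctccCCAATttgttggcg
Col4a4 and Col4a3: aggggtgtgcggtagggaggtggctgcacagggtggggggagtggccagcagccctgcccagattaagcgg
Col4a5: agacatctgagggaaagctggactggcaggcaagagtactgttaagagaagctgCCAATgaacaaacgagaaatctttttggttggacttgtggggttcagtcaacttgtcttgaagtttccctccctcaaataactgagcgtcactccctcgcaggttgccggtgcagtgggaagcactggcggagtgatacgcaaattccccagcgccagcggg
Col4a6: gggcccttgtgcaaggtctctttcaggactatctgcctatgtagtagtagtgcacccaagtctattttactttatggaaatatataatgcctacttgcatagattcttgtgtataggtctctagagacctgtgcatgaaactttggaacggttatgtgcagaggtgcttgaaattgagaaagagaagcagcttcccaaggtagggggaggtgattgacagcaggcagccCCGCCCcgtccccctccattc
The Col4a2 stretch holds 1 CCAAT and 1 GC box, the Col4a4 and Col4a3 stretch neither but 1 GGTGTG, the Col4a5 stretch 1 CCAAT and the Col4a6 stretch 1 GC box.

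Per transcript length, the ratio of Col4a1 to Col4a2 was 1.91, 1.87 and 1.94 in wild type replicates 1 to 3 and 2.14, 2.07, 1.97 and 1.81 in overexpression replicates 1 to 4. Its highest value was 1.18 times its lowest, although Col4a1 itself varied from 409 to 1725 CPM. The ratio of Col4a3 to Col4a4 ran from 0.778 to 0.930, and that of Col4a5 to Col4a6 from 3.24 to 4.71. A steady ratio was not particular to head-to-head pairs. For Col6a1 to Col6a2, with starts 102538 bp apart on the same strand, the highest ratio was 1.17 times the lowest. Between pairs the balance shifted in replicate 1: Col4a1 per Col4a5 was 1.95, 2.50 and 1.87 in wild type replicates 1 to 3 and 4.91, 2.01, 2.80 and 2.40 in overexpression replicates 1 to 4. No test was made of these ratios.

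**Figure D4:**
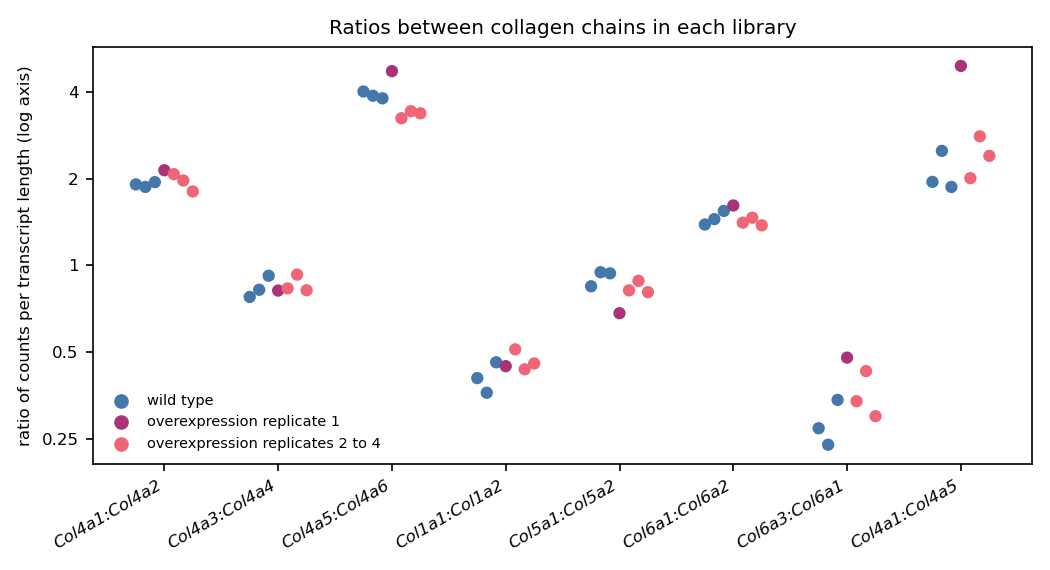
Ratio of counts per transcript length between 8 pairs of collagen chains on a log axis, 1 point per library. The Col4a1 to Col4a2 ratios lie between 1.81 and 2.14, whereas the Col4a1 to Col4a5 ratio reaches 4.91 in overexpression replicate 1.

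Beaded filament chains build type VI collagen, a fine network around cells, from Col6a1, Col6a2 and a further chain, of which Col6a3 is the usual one. None of the 5 tested passed (0 higher and 0 lower, median 0.59, or 0.48 without overexpression replicate 1). Col6a2 came closest, at 202, 168 and 261 CPM in wild type replicates 1 to 3 and 356, 324, 307 and 278 CPM in overexpression replicates 1 to 4. Its groups did not overlap, and its log2 fold change was 0.59 ± 0.16 (SE), adjusted p = 0.0680, or 0.53 ± 0.15 (SE), adjusted p = 0.0593 without replicate 1. Col6a1 had 246, 215 and 355 CPM in wild type replicates 1 to 3 and 506, 402, 396 and 337 CPM in overexpression replicates 1 to 4, and wild type replicate 3 lay above overexpression replicate 4 (0.59 ± 0.20 (SE), adjusted p = 0.137). Col6a3 had 166, 127 and 299.5 CPM in wild type replicates 1 to 3 and 599, 335, 420.5 and 249.7 CPM in overexpression replicates 1 to 4, with replicate 1 the highest and wild type replicate 3 above replicate 4 (1.02 ± 0.37 (SE), adjusted p = 0.180). Leaving out replicate 1 gave 0.76 ± 0.36 (SE), adjusted p = 0.306, for Col6a3. The ratio of Col6a1 to Col6a2 per transcript length stayed between 1.38 and 1.61, while that of Col6a3 to Col6a1 was 0.273, 0.239 and 0.342 in wild type replicates 1 to 3 and 0.479, 0.339, 0.431 and 0.301 in overexpression replicates 1 to 4. Nor did the chains that can take the place of Col6a3 pass: Col6a5 had 19.3 ± 7.12 CPM (SD, n = 3) in wild type and 23.3 ± 7.19 CPM (SD, n = 4) in overexpression (adjusted p = 0.699), and Col6a6 96.4 ± 14.5 CPM (SD, n = 3) and 107 ± 19.4 CPM (SD, n = 4) (adjusted p = 0.664).

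The 15 tested chains of the other types, of which Col12a1 and Col22a1 rose and 0 fell, had a median log2 fold change of 0.40 with all libraries and 0.17 without overexpression replicate 1. Over all tested genes 1.55% were called higher and 3.29% lower with all libraries. Those of fibril surfaces and of the basement membrane zone were the most abundant. Col14a1, a fibril-associated chain of mature fibres, had 355, 240.4 and 337 CPM in wild type replicates 1 to 3 and 436, 487, 450.2 and 365 CPM in overexpression replicates 1 to 4. Every overexpression library lay above every wild type one, replicate 1 did not stand out, and the gene did not pass (0.48 ± 0.16 (SE), adjusted p = 0.133, or 0.48 ± 0.16 (SE), adjusted p = 0.109 without replicate 1). Col15a1, a chain of the zone next to capillary and muscle basement membranes, had 389, 341 and 479 CPM in wild type replicates 1 to 3 and 449, 575, 663 and 485 CPM in overexpression replicates 1 to 4 (0.43 ± 0.17 (SE), adjusted p = 0.207). Without replicate 1, which was the lowest of its group, its groups did not overlap and its adjusted p was 0.0701. Its relative Col18a1, the source of endostatin, had 49.3, 52.8 and 44.2 CPM in wild type replicates 1 to 3 and 101, 58.3, 48.7 and 46.9 CPM in overexpression replicates 1 to 4: replicate 1 stood alone, and the log2 fold change moved from 0.39 to 0.07 without it. Col8a1, a short chain of networks in vessel walls and valves, was more marked in this way, at 53.5, 45.9 and 70.8 CPM in wild type replicates 1 to 3 and 246, 60.5, 52.9 and 74.2 CPM in overexpression replicates 1 to 4. Replicate 1 held 3.94 times the mean of the other overexpression libraries, and the log2 fold change went from 0.94 ± 0.56 to 0.14 ± 0.17 (SE) without it, with neither called. Its partner Col8a2 was scarce, at 2.56 ± 0.888 CPM (SD, n = 3) in wild type and 2.91 ± 0.825 CPM (SD, n = 4) in overexpression. Col16a1, a fibril-associated chain, was also highest in replicate 1, at 89.2 CPM there and 45.5 to 57.8 CPM in the other overexpression libraries.

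The 3 transmembrane chains other than Col13a1 did not pass. Col25a1, known in muscle innervation, stood at 7.75, 3.81 and 6.90 CPM in wild type replicates 1 to 3 and 1.78, 4.48, 4.52 and 3.49 CPM in overexpression replicates 1 to 4, with replicate 1 the lowest library (log2 fold change -0.81 ± 0.36 (SE), adjusted p = 0.270). Col23a1 had 42.9 ± 8.55 CPM (SD, n = 3) in wild type and 41.9 ± 9.09 CPM (SD, n = 4) in overexpression (adjusted p = 0.955), and Col17a1, a chain of epithelial hemidesmosomes, stayed at or below 2.40 CPM. Col20a1, a fibril-associated chain, had a log2 fold change of -0.12 ± 0.22 (SE), and Col7a1, the anchoring fibril chain of skin, of 0.25 ± 0.38.

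Of the 9 chains with too few reads to test, 6 were cartilage chains: Col2a1, Col9a1, Col9a2, Col9a3, Col10a1 and Col11a1. Col2a1, the main cartilage collagen, had 3 reads over all 7 libraries, Col9a1 had 2, Col10a1 had 1 and Col19a1 had 10, which are the 4 with a mean of at most 3 reads per library. Col9a2 had 42 reads in all, Col6a4 24 and Col9a3 23. Col11a1 had 25 reads in overexpression replicate 1 and at most 9 in any other library, and Col26a1 had 23 and at most 8. Col9a3 had 4, 7 and 4 reads in wild type and 2, 1, 1 and 4 in overexpression replicates 1 to 4, lower in CPM in every overexpression library, and Col6a4 had 4, 8 and 5 against 6, 0, 1 and 0. With no filter on low counts none of the 9 passed (adjusted p = 0.383 to 0.948, 0.436 for Col9a3 and 0.456 for Col6a4).

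Levels of different chains can be set side by side only per length, here CPM per kilobase of the longest protein-coding transcript. In wild type atria Col3a1 was the most abundant at 575 ± 226 (SD, n = 3), followed by Col1a2 at 160.4 ± 37.1. How far Col1a2 leads depends on the length used. Over all 7 libraries its mean per transcript length was 221, beside 111 for Col4a1 and 99.1 for Col1a1. Over the union of annotated exons the means of the same 7 libraries were 95.1, 98.7 and 89.5. No mean over the union was taken for wild type alone. Next in wild type atria, per transcript length, came Col15a1 at 77.9 ± 13.6, Col4a1 at 74.7 ± 11.3, Col1a1 at 67.0 ± 23.7 and Col6a1 at 66.3 ± 18.0. The ranges of these chains over the wild type libraries overlapped. All were measured in the same libraries, so overlapping ranges do not show equal levels, and no comparison within libraries was made. Col14a1, Col6a2, Col4a2 and Col4a5 followed at 48.1 ± 9.55, 45.2 ± 10.1, 39.2 ± 5.84 and 36.0 ± 7.27, each overlapping its neighbours. In overexpression the same quantity was 1068 for Col3a1, 267 for Col1a2, 139 for Col4a1 and 123 for Col1a1.

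Overexpression replicate 1 was the library in which collagens were highest. Of the 35 tested chains, 19 stood higher in it than in each other overexpression library (54.3%), as did 34.8% of all tested genes with a mean of at least 1 CPM. It held at least 2 times the mean of the others in 6 chains (Col3a1, Col4a1, Col4a2, Col5a2, Col8a1 and Col12a1), and in 4.18% of all those genes. Genes of other cell types differed in that library too, and their part in the collagen levels was not tested. The 13 fibroblast markers that are not collagens, such as Pdgfra, Dcn and Gsn, summed to 9857 to 11857 in wild type, 12016 to 14372 in overexpression replicates 2 to 4 and 7386 in replicate 1 (CPM), and none of the 13 was called in either fit. Dcn and Gsn made up most of that sum, so the lower sum in replicate 1 rests mainly on these abundant genes. Other members went both ways in replicate 1. Pdgfra (199 CPM), Fbln1 (259 CPM), Scara5 (34.2 CPM) and Clec3b (8.22 CPM) were, like Dcn and Gsn, lowest of all 7 libraries there. Mfap5 (219.7 CPM), Pi16 (167 CPM) and Tcf21 (32.4 CPM, against 32.3 CPM in wild type replicate 3) were highest of all 7. Dpt (486 CPM) and Mfap4 (200.5 CPM) lay above every wild type library, and Lum and Mgp lay inside the wild type range. Collagen level per level of these markers was 0.724, 0.616 and 0.867 in wild type replicates 1 to 3, 0.818, 1.08 and 0.710 in overexpression replicates 2 to 4 and 2.72 in replicate 1. Activated fibroblast markers, 12 genes with Acta2, Postn and Fn1 among them, summed to 831 to 925 in wild type, 1303 to 1466 in overexpression replicates 2 to 4 and 2720.3 in replicate 1. Of the 11 tested, Acta2 rose (5.05 ± 0.33 (SE), adjusted p = 1.37e-04), and without replicate 1 Fn1 fell (-0.48 ± 0.12 (SE), adjusted p = 0.0287). Postn, a marker of fibroblasts in scar, stood at 599 CPM in replicate 1 and 46.7 to 97.7 CPM in the other 6 libraries. The list was led by Fn1 in wild type and by Acta2, which smooth muscle makes too, in overexpression. Acta2 stood at 15.3 to 36.2 CPM in wild type and 681 to 761 CPM in overexpression replicates 2 to 4. The higher list sum in overexpression replicates 2 to 4 rests on this gene. Other members went both ways there, with Fn1 below and Lox above every wild type library.

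Smooth muscle and pericyte markers summed to 533 to 621 in wild type, 654 to 791 in overexpression replicates 2 to 4 and 885 in replicate 1, and 2 of 10 rose, Cspg4 (1.34 ± 0.20 (SE), adjusted p = 0.00592) and Notch3 (0.62 ± 0.15 (SE), adjusted p = 0.0479). Without replicate 1, Myh11 and Tagln rose as well. Over all tested genes 4.84% were called with all libraries (1.55% higher and 3.29% lower) and 8.73% without replicate 1 (3.74% higher and 4.99% lower). Endothelial markers summed to 1934 to 2175 in wild type, 1579 to 1749 in overexpression replicates 2 to 4 and 2191 in replicate 1, with 0 of 9 called, and Vwf and Fabp4 fell without replicate 1. Endocardial markers summed to 1400.2 to 1497 in wild type, 1121 to 1359.5 in overexpression replicates 2 to 4 and 1159 in replicate 1, with 0 of 4 called, and Cytl1 and Plvap fell without replicate 1. Epicardial and mesothelial markers summed to 461 to 533 in wild type, 481 to 624 in overexpression replicates 2 to 4 and 923 in replicate 1, and macrophage markers to 406 to 563 in wild type, 489.9 to 652 in overexpression replicates 2 to 4 and 562 in replicate 1, with 0 of 8 called in each list in either fit. Atrial cardiomyocyte markers summed to 151433 to 177183 in wild type, 97298 to 137160.0 in overexpression replicates 2 to 4 and 113876 in replicate 1, so these genes were abundant in every library, and 2 of 10 fell, Myl7 (-2.02 ± 0.30 (SE), adjusted p = 0.00628) and Sln (-1.58 ± 0.15 (SE), adjusted p = 6.10e-04). Cartilage and valve markers summed to 51.5 to 89.6 in wild type, 53.3 to 61.9 in overexpression replicates 2 to 4 and 43.5 in replicate 1 with 0 of 2 tested called, and adipocyte markers to 11.02 to 29.1 in wild type, 6.28 to 66.9 in overexpression replicates 2 to 4 and 1.33 in replicate 1 with 0 of 5.

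**Figure D5:**
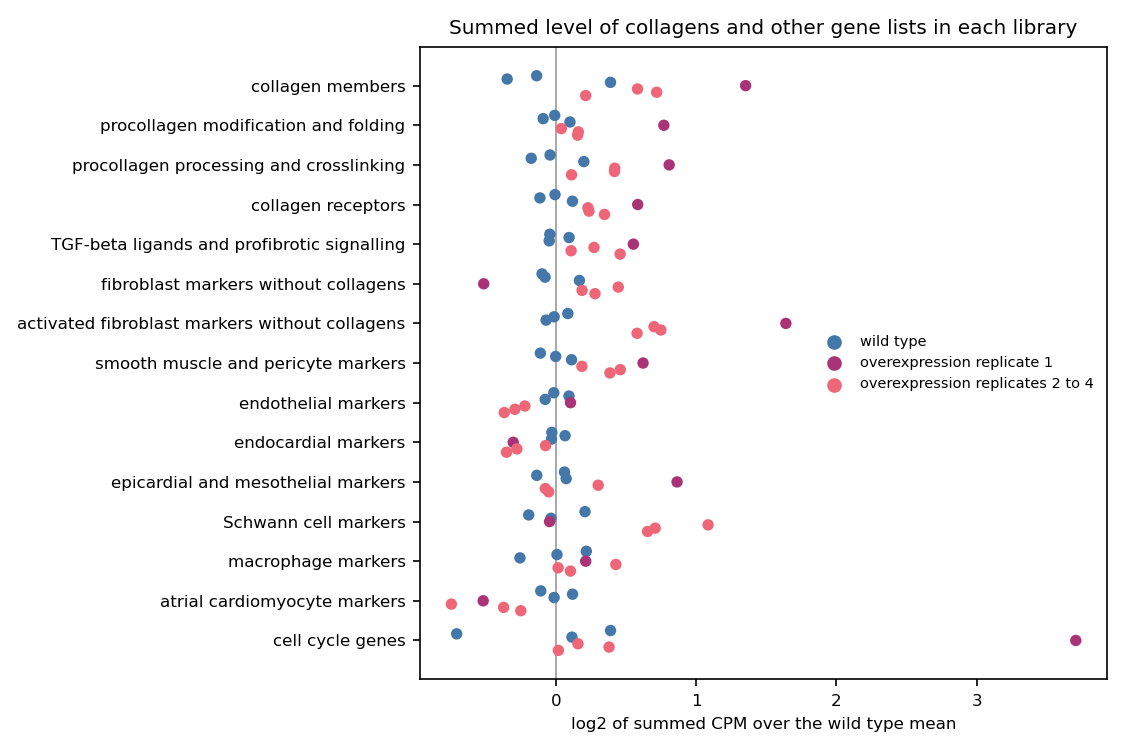
Log2 of the summed CPM of the collagens and of 14 other gene lists in each library over the wild type mean of that list. Collagens and activated fibroblast markers are highest in overexpression replicate 1 (darker points). So are both procollagen lists and those of receptors, TGF-beta, smooth muscle, endothelial, epicardial and cell cycle genes, with cell cycle genes furthest right at 3.71. Fibroblast markers without collagens are lowest in that library.

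Collagen chains are hydroxylated, folded, trimmed and crosslinked before they hold a load. Over all tested genes 4.84% were called (1.55% higher and 3.29% lower), and 8.73% without overexpression replicate 1. Of 20 modification and folding genes, 0 rose and 0 fell, with a median log2 fold change of 0.27, or 0.10 without overexpression replicate 1. Serpinh1, the collagen chaperone HSP47, had 360.0, 291 and 414 CPM in wild type replicates 1 to 3 and 959.6, 402, 490.4 and 434 CPM in overexpression replicates 1 to 4 (0.69 ± 0.31 (SE), adjusted p = 0.281). Replicate 1 was the highest library by a wide margin, as for Col3a1. Leaving it out gave 0.32 ± 0.14 (SE), adjusted p = 0.215, for Serpinh1. Among 12 tested genes of processing and crosslinking, 2 rose and 1 fell (median 0.51). Bmp1, the enzyme that trims the C-terminal end of procollagen, rose from 68.6 ± 3.45 CPM (SD, n = 3) to 96.6 ± 8.57 CPM (SD, n = 4) (0.49 ± 0.10 (SE), adjusted p = 0.0256). Loxl3, a lysyl oxidase that crosslinks chains, rose from 15.5 ± 2.54 CPM (SD, n = 3) to 24.1 ± 2.09 CPM (SD, n = 4) (0.63 ± 0.15 (SE), adjusted p = 0.0417). Adamts3, which trims the N-terminal end, fell from 26.3 ± 5.60 CPM (SD, n = 3) to 15.2 ± 2.23 CPM (SD, n = 4) (-0.80 ± 0.17 (SE), adjusted p = 0.0327), and with library totals none of the 12 was called lower. Without replicate 1, Tll1, a relative of Bmp1, fell too (-0.96 ± 0.17 (SE), adjusted p = 0.00709). Lox itself, at 12.0, 17.9 and 16.6 CPM in wild type replicates 1 to 3 and 63.5, 25.6, 24.9 and 19.8 CPM in overexpression replicates 1 to 4, was not called (1.12 ± 0.41 (SE), adjusted p = 0.194). Leaving out replicate 1 gave 0.59 ± 0.17 (SE), adjusted p = 0.0618, for Lox.

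Collagen receptors were called in 0 of 11 tested cases with all libraries (median 0.40). Over all tested genes 4.84% were called, 8.73% without overexpression replicate 1 and 5.55% with library totals. Without replicate 1, Itga10 (1.25 ± 0.30 (SE), adjusted p = 0.0290) and Ddr2, the fibroblast receptor of fibrillar collagen (0.46 ± 0.11 (SE), adjusted p = 0.0282), rose, and 2 of the 11 were called higher with library totals. Of 20 genes of transforming growth factor beta and related signals, 0 were called (median 0.22), and Ltbp1, which stores the latent ligand, rose without replicate 1 (0.53 ± 0.11 (SE), adjusted p = 0.0163). The ligand genes Tgfb1, Tgfb2 and Tgfb3 had log2 fold changes of -0.38, 0.40 and 0.04. Thbs1, an activator of the latent ligand, had 15.7, 11.9 and 9.11 CPM in wild type replicates 1 to 3 and 235, 30.6, 14.3 and 33.3 CPM in overexpression replicates 1 to 4. It was highest in replicate 1 by far and was not called (adjusted p = 0.214, or 0.100 without replicate 1).

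The RefSeq table of promoters gave 38 windows of 300 bases for 35 of the 44 collagen genes, from 250 bases before to 50 bases after a start. Searched on both strands, the GC box GGGCGG occurred in 23 of 38 windows (60.5%, against 35.7% of all 32851), and CCAAT in 13 of 38 windows (34.2%, against 37.4% of all 32851). AGATAA, a site read by GATA factors, occurred in 2 of 38 windows (5.26%, against 11.2% of all 32851), those of Col11a2 and Col17a1, and GGTGTG, the core of a T-box site, in 9 of 38 windows (23.7%, against 19.0% of all 32851). The Smad element CAGACA occurred in 9 of 38 windows (23.7%, against 21.0% of all 32851), the AP-1 site TGANTCA in 1 of 38 windows (2.63%, against 7.81% of all 32851), CATTCC, read by TEAD factors, in 5 of 38 windows (13.2%, against 14.7% of all 32851), and TATAAA in 5 of 38 windows (13.2%, against 13.6% of all 32851). No motif searched contains another, and a match is only a string of letters in the reference. AGATAA was the only form of the GATA site searched. The windows of Col4a1 and Col4a2 share bases, and so do the 2 windows of Col6a2, both of which hold a GC box.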

How the data were processed

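RNA from left atria of 4 FOG2 overexpression and 3 wild type samples was sequenced. The deposited table holds raw read counts per gene symbol, 1 column per library. STAR, HTSeq 0.6.0, DESeq2 and the mm10 build are named in the submitters' processing notes, with no roles. No source used here gives the annotation, strand setting or filters. The labels name both polyA selection and removal of ribosomal RNA, so how RNA was selected is not settled. Gene rows took 27.8% to 33.1% of the deposited counts. Rows for reads outside genes (23.4% to 30.5%), not unique (37.1% to 43.4%) or ambiguous (0.101% to 0.254%) were left out.

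From the counts, edgeR 4.0.16 (R 4.3.3) with TMM scaling, filterByExpr (a minimum count of 10, which came to 1.17 CPM in at least 3 libraries) and its robust quasi-likelihood test, two-sided, compared the groups over 13295 genes. P-values were adjusted by the Benjamini-Hochberg method over all of them, with a threshold of 0.05. Log2 fold changes are overexpression over wild type, and every adjusted p without another tool named comes from this test. Of the 44 collagen genes, 35 passed the filter, 32 of them in every wild type library. Called means past the threshold. On simulated counts for 13164 genes with 198 changed, the test called 125, 8 of them falsely, and recovered 21.2% where the change was 1.5-fold, 65.2% where it was 2-fold and 90.9% where it was 4-fold. The simulated counts were drawn independently for each gene and library, with no library standing apart as overexpression replicate 1 does. These rates therefore need not hold for the real comparison.

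Collagen genes, classes and gene lists were chosen with earlier results of these data known. Full values were given for called chains, the 6 most abundant per length, the leading chain of each class and chains that assemble together or lie head to head, and other chains by range. Serpinh1, Lox, Thbs1, Postn, Mfap5, Pi16, Tcf21, Dpt, Mfap4, Fbln1, Scara5, Clec3b, Lum and Mgp were chosen after their values were seen. Lengths are those of the longest basic protein-coding transcript in GENCODE M21. Alternatives were other scalings, filters and tools (DESeq2 1.42.0, limma 3.58.1 with voom), each library left out, and the replicate number as a block.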

Additional observations from a re-analysis of the deposited data

Results flagged for a closer look

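Among 41 groups of 4 overexpression libraries checked for a single library far from the others, 2 were found, and a rule that picks 1 group in 20 by chance gives 2.05. Col5a2, a chain of type V collagen, stood at 669 CPM in overexpression replicate 1, a gap to the next library of 0.857 of the group's range. Col8a1, a chain of type VIII collagen, stood at 246 CPM in the same library, a gap of 0.890 of the range. Neither gene was called with or without that library.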

How the results depend on the processing

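No collagen was called lower under any alternative. Col12a1 stayed past the threshold in each, and Col22a1 in each except without wild type replicate 2. Of 665 single chain values under the alternatives, 628 kept their sign and side of the threshold, 23 newly passed it, 1 no longer did and 13, of 5 chains called under none, changed sign. With 1 library left out, log2 fold changes of these 5 ran from -0.75 to 0.10 for Col17a1, -0.35 to 0.090 for Col20a1, -0.18 to 0.096 for Col23a1, -0.0041 to 0.48 for Col6a5 and -0.016 to 0.45 for Col7a1. With library totals they were 0.0065 for Col20a1 and 0.10 for Col23a1, and 0.060 and 0.042 where overexpression replicate 1 was left out too. For Col7a1 the value was -0.035 with the replicate block and -0.016 over the same libraries without it. With 1 library left out, 1 to 4 collagens were called higher, 75 to 493 of all genes higher and 181 to 658 lower, against 2, 206 and 438 with all. The highest of these counts came without overexpression replicate 1 (for collagens also without wild type replicate 3), and the lowest without wild type replicate 2. With library totals 5 collagens and 444 genes were called higher and 294 genes lower. Scaling to fibroblast markers gave 3 collagens, 134 genes higher and 222 lower. DESeq2 gave 12 collagens, 460 genes higher and 681 lower. Without overexpression replicate 1 and with library totals, an alternative chosen after seeing the data, 6 collagens and 917 genes were higher. The cause of these differences was not tested.

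Correlations of deviations between same-numbered libraries were 0.079, 0.014 and 0.072. Among replicates 1 to 3 those of different numbers ran from -0.093 to 0.041, and with overexpression replicate 4 they reached 0.152. These low values do not settle whether replicate numbers pair the libraries, and the main test has no pairing. With the replicate block over replicates 1 to 3, 123 genes were called higher, 250 lower and 2 collagens higher. The same 6 libraries without the block, added after seeing the data, gave 125 and 304. Without wild type replicate 3 the class medians of log2 fold change were 1.07 for fibrillar, 0.51 for basement membrane, 0.77 for beaded filament and 0.55 for other chains. The ratio of summed other collagens was 1.40 in TMM-scaled CPM, 1.53 in CPM on library totals and 1.60 per transcript length with each library scaled to its own total. Depth limited the 9 chains left untested.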

Other observations

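Ratios between further chains were also taken in each library. Per transcript length, Col3a1 to Col1a1 ran from 7.26 to 10.1 over the 7 libraries, with the highest value in overexpression replicate 1. Col5a1 to Col5a2 ran from 0.683 to 0.948, with the lowest value in that library. Across type IV pairs, Col4a5 to Col4a3 ran from 3.66 to 5.73. These ratios are given as values, and none was tested.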
